A study of Mus musculus with 3 samples.

Results

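Egr1, Egr2, Egr3, Egr4, Nr4a1, Nr4a2, Nr4a3, Ier2, Btg2 and Arc are immediate early genes, and they were described here in RNA from mouse brain vessels. The 10 genes were taken from a list fixed by symbol, out of 29787 genes in the deposited tables, and all 10 were among the 16604 measured genes, those that reached a normalised read count of 1 CPM (counts scaled to a common library size) in any library. That list was drawn up with earlier results of these data known. RNA came from 3-month-old mice, with 1 polyA+ library for each of 3 groups. In the first group, labelled hGFAP-Cre/Cx43fl/fl and Cx43 -/-, Gja1 (the connexin 43 gene, Cx43) carries loxP sites and the human GFAP promoter drives Cre. These mice were of mixed C57BL6-BALB/c background. GFAP promoters drive expression in astroglia, and human GFAP promoter lines can also be active in neural progenitors. The controls were wild type (WT), in a group of that same mixed background and in a group of C57BL6 mice. The labels do not say whether the WT mice carried loxP sites or Cre, and give neither the sex nor the number of mice behind a library.

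Immediate early genes are transcribed within minutes of a stimulus without new protein synthesis, by factors already present in the nucleus such as SRF with its ternary complex partners and CREB. Egr proteins are zinc finger transcription factors, and Nr4a proteins are orphan nuclear receptors that bind DNA without a known hormone. In the brain these genes are best known as markers of recent neuronal activity, and in vessels they respond to growth factors, flow and injury. Their RNAs are short-lived.

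The library totals were 54975610 reads for Cx43-deleted mice, 21170766 for WT C57BL6-BALB/c mice and 24830975 for WT C57BL6 mice, and values below are given in that order. With 1 library per group no test was possible, so every difference is one between libraries. Intervals are 95% counting intervals and cover counting error only. Gja1 had 2574, 4276 and 5138 reads, and was 4.20-fold (4.001 to 4.41) and 4.21-fold (4.02 to 4.42) lower in the Cx43-deleted library than in the WT libraries. Of the 16 endothelium markers, 0 were at 0 reads in any library, and the same held for all 9 other cell type lists, neurons and myelin included. Transcripts of brain parenchyma were therefore present beside those of vessels. In such bulk RNA, fewer cells of a type and less RNA per cell cannot be told apart.

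RefSeq promoter windows (GRCm38.p6, 250 bases before to 50 after a start) matched 6 of the 10 genes: Egr2, Egr4, Nr4a1, Nr4a2, Nr4a3 and Btg2. The stretches below are shown because these genes are read together in the results, with Nr4a3 as the gene that went least with the others. They end at the RefSeq start, or for Nr4a3 before the first annotated exon. Capitals mark the core of the cAMP response element (TGACG on either strand), the whole element (TGACGTCA, which contains the core on both strands) and the CArG box, the binding sequence of SRF.
Egr2, chr10:67537619-67537868, plus strand: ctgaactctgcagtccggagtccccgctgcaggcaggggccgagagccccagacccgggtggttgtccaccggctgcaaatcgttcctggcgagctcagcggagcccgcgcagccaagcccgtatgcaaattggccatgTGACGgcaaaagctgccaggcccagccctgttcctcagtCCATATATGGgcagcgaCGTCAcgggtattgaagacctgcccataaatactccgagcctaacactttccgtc
Egr4, chr6:85513590-85513839, minus strand: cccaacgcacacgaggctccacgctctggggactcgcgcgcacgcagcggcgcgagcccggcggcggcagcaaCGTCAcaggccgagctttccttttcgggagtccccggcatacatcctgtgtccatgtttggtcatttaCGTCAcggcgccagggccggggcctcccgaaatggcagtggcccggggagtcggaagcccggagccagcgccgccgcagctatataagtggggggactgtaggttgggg
Nr4a1, chr15:101266596-101266845, plus strand: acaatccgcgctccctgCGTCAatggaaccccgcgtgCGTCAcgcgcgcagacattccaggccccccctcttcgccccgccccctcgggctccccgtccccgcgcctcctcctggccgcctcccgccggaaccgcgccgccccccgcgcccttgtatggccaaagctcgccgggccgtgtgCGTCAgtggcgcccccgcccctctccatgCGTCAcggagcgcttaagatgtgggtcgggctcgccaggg
Btg2, chr1:134079156-134079405, minus strand: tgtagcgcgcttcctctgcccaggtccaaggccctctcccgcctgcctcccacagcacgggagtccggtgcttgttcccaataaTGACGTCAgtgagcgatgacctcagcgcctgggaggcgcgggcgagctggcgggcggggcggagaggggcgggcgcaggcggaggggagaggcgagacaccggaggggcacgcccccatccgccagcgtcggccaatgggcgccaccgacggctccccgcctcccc
Nr4a3, chr4:48045055-48045152, plus strand: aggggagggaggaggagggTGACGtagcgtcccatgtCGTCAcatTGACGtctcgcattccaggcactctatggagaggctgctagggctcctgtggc

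All 6 windows held the core TGACG, against 20.8% of the 32851 RefSeq windows of the same length. Nr4a1, Nr4a2 and Nr4a3 each held 4 copies, and Egr2, Egr4 and Btg2 each held 2. The whole element TGACGTCA was in the Btg2 window, starting 166 bases before the start, and in 1.79% of all windows. The CArG box was in the Egr2 window, starting 72 bases before the start of its most abundant transcript, and in 1.63% of all windows. GCGGGGGCG, a sequence bound by Egr proteins, was in the Nr4a1 window and in 2.91% of all windows. The other Egr sequence searched, GCGTGGGCG, and the Nr4a sequence AAAGGTCA were in 0 of the 6 windows and in 0.612% and 1.51% of all windows. TATAAA was in the Nr4a2 window and in 13.6% of all. These are matches of letters on both strands, not sites shown to be bound, and the windows of Nr4a3 and Nr4a2 lie 152 and 8965 bases from the start of their most abundant transcript.

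All 10 genes were lower in the Cx43-deleted library than in both WT libraries, where 35.6% of all measured genes lay below both and 33.2% above both. In single comparisons, 49.5% of all genes were lower than in WT C57BL6-BALB/c and 52.9% lower than in WT C57BL6. Egr1, Egr2, Egr3, Egr4, Nr4a1, Nr4a2, Ier2 and Btg2 were lower by 2-fold or more than in the nearer WT library, which makes 8 of 10. Over all genes this share was 0.379%, and 0.428% lay 2-fold or more above both, among them 0 of the 10. Because the 10 genes were chosen with earlier results of these data known, the shares describe the set and do not test it. The summed level of the set over all deposited transcripts, in which a read on shared exons counts more than once, was 807, 1885 and 1953 CPM. Its median log2 ratio was −1.39 to WT C57BL6-BALB/c and −1.34 to WT C57BL6, comparisons that share the Cx43-deleted library. From WT C57BL6-BALB/c to WT C57BL6 it was −0.03. Over all measured genes these medians were 0.0030, −0.03 and −0.03. Relative to the median of the smooth muscle markers or of the endothelium markers, 1 gene instead of 8 stayed 2-fold below both WT libraries (Egr2 and Btg2 respectively), as described with those markers.

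**Figure D1:**
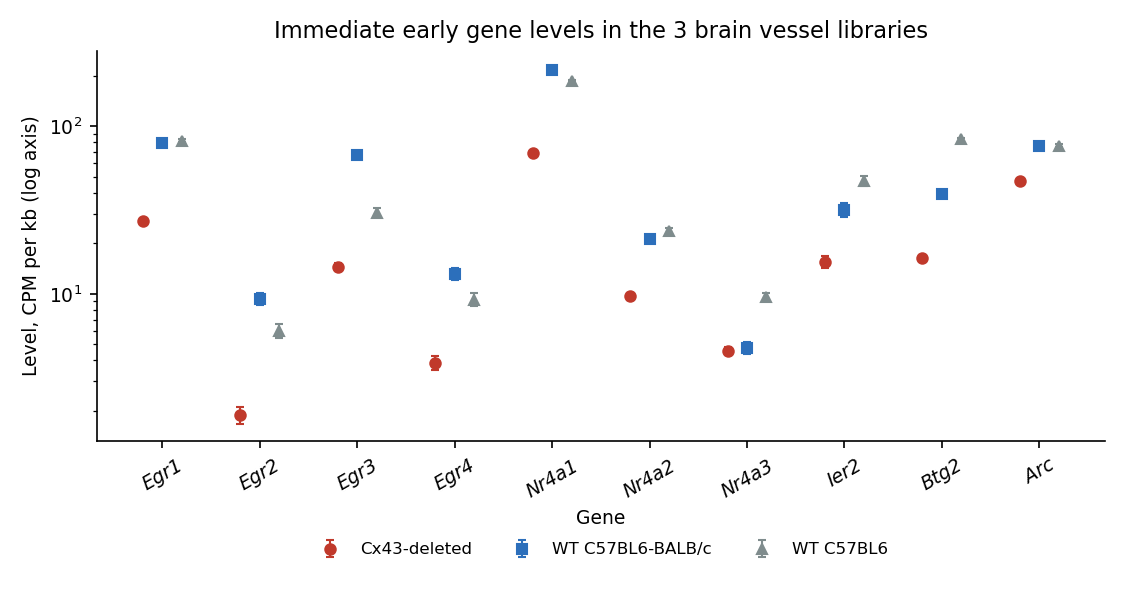
Level of each gene in the 3 libraries, in CPM of the most abundant transcript per kb of its length, on a log axis. Symbols are single libraries and bars are 95% counting intervals, and the Cx43-deleted library (circles) is lowest for each gene, with Nr4a3 at 4.56 and 4.77 in the Cx43-deleted and WT C57BL6-BALB/c libraries.

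Egr1, the family member most used as an activity marker, lies on GRCm38 chromosome 18 (34859823 to 34864984; ENSMUSG00000038418). It had 4534, 5201 and 6470 reads, or 84.5, 245 and 255 CPM. Both WT libraries were alike and the Cx43-deleted library lay below them, by 2.90-fold (2.79 to 3.02) and 3.01-fold (2.90 to 3.13). Its WT libraries differed by 1.04-fold (1.001 to 1.08), the smallest WT difference in the Egr family.

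Egr2, a regulator of myelination in Schwann cells and of hindbrain segments, lies on chromosome 10 (67535475 to 67542188; ENSMUSG00000037868). Its most abundant transcript had 300, 589 and 454 reads, or 5.59, 27.8 and 17.9 CPM. Relative to WT C57BL6-BALB/c it was 4.97-fold (4.31 to 5.73) lower, the highest estimate of the 10 genes on that background, with an interval overlapping that of Egr3. Against WT C57BL6 it was 3.20-fold (2.76 to 3.71) lower. WT C57BL6-BALB/c was the highest library, 1.55-fold (1.37 to 1.76) above WT C57BL6.

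Egr3, which is known for roles in muscle spindles and T cells, lies on chromosome 14 (70077203 to 70082614; ENSMUSG00000033730). It had 1096, 2016 and 1095 reads, or 20.4, 95.1 and 43.1 CPM. The 3 libraries were spread in steps: the Cx43-deleted level was 4.65-fold (4.32 to 5.01) under that of WT C57BL6-BALB/c and 2.11-fold (1.94 to 2.30) under that of WT C57BL6. The WT libraries differed by 2.21-fold (2.05 to 2.38), more than the Cx43-deleted library differed from WT C57BL6.

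Egr4, the least studied member, lies on chromosome 6 (85511121 to 85513589; ENSMUSG00000071341). It had 444, 596 and 502 reads, or 8.28, 28.1 and 19.8 CPM, in the same order of libraries as Egr2 and Egr3. It was 3.40-fold (3.00 to 3.85) and 2.39-fold (2.10 to 2.72) lower in the Cx43-deleted library. A deposited transcript of 6230 bases that was not matched to the annotation reaches over Egr4, with 134, 131 and 99.9 CPM. Whether reads are shared between them was not tested.

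Nr4a1, also called Nur77, an orphan receptor induced in endothelium, immune cells and neurons, lies on chromosome 15 (101254269 to 101274795; ENSMUSG00000023034). It had the most reads of the set, with 9220, 11348 and 11646, or 172, 535 and 458 CPM. The Cx43-deleted library lay 3.11-fold (3.03 to 3.20) and 2.67-fold (2.59 to 2.74) below the WT libraries. These in turn differed by 1.17-fold (1.14 to 1.20).

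Nr4a2, or Nurr1, required for midbrain dopamine neurons, lies on chromosome 2 (57106830 to 57124003; ENSMUSG00000026826). Its most abundant transcript had 1846, 1611 and 2153 reads, or 34.4, 76.0 and 84.7 CPM. It was 2.21-fold (2.06 to 2.36) and 2.46-fold (2.31 to 2.62) lower than in the WT libraries, which differed by 1.12-fold (1.05 to 1.19). Deposited transcripts of 3123 and 2756 bases that were not matched to the annotation reach over Nr4a2. The first was at 32.0, 71.9 and 79.3 CPM and the second at 26.5, 57.2 and 62.6 CPM. Sharing of reads with them was not tested.

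Nr4a3, or Nor1, lies on chromosome 4 (48045153 to 48086447; ENSMUSG00000028341). Its most abundant transcript had 1400, 578 and 1395 reads, or 26.1, 27.3 and 54.9 CPM. The libraries of the mixed background were alike and WT C57BL6 stood above them. The difference from WT C57BL6-BALB/c was 1.04-fold with an interval of 0.946 to 1.15 that includes no difference, while WT C57BL6 was 2.10-fold (1.95 to 2.27) higher. Nr4a3 was thus below both WT libraries in sign only, with a log2 ratio of −0.09 to the nearer.

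Ier2, a short nuclear protein of the immediate early response, lies on chromosome 8 (84661331 to 84662852; ENSMUSG00000053560). It had 551, 447 and 796 reads, or 10.3, 21.1 and 31.3 CPM. It was 2.05-fold (1.81 to 2.33) and 3.05-fold (2.73 to 3.41) lower in the Cx43-deleted library. Its log2 ratio to the nearer WT library, −1.002, was just past the 2-fold limit, and it was −0.97 with a pseudocount of 1. The next inside the limit were Egr3 (−1.06) and Nr4a2 (−1.12), and the nearest outside was Arc (−0.70).

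Btg2, an antiproliferative protein that recruits the deadenylase complex to mRNA, lies on chromosome 1 (134075170 to 134079120; ENSMUSG00000020423). It had 2710, 2569 and 6546 reads, or 50.5, 121 and 258 CPM. As for Egr3 the libraries were spread in steps, but here WT C57BL6 was the highest. The Cx43-deleted level was 2.40-fold (2.27 to 2.53) under that of WT C57BL6-BALB/c and 5.10-fold (4.88 to 5.34) under that of WT C57BL6. The WT libraries differed by 2.13-fold (2.03 to 2.23).

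Arc, a synaptic protein that forms capsid-like particles and regulates glutamate receptor uptake, lies on chromosome 15 (74669083 to 74672570; ENSMUSG00000022602). Its most abundant transcript had 7644, 4899 and 5915 reads, or 142, 231 and 233 CPM. The WT libraries were alike, with a difference of 1.01-fold and an interval of 0.970 to 1.05. The Cx43-deleted library was 1.62-fold (1.56 to 1.68) and 1.63-fold (1.58 to 1.69) lower, the smallest difference from the nearer WT library after Nr4a3.

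**Figure D2:**
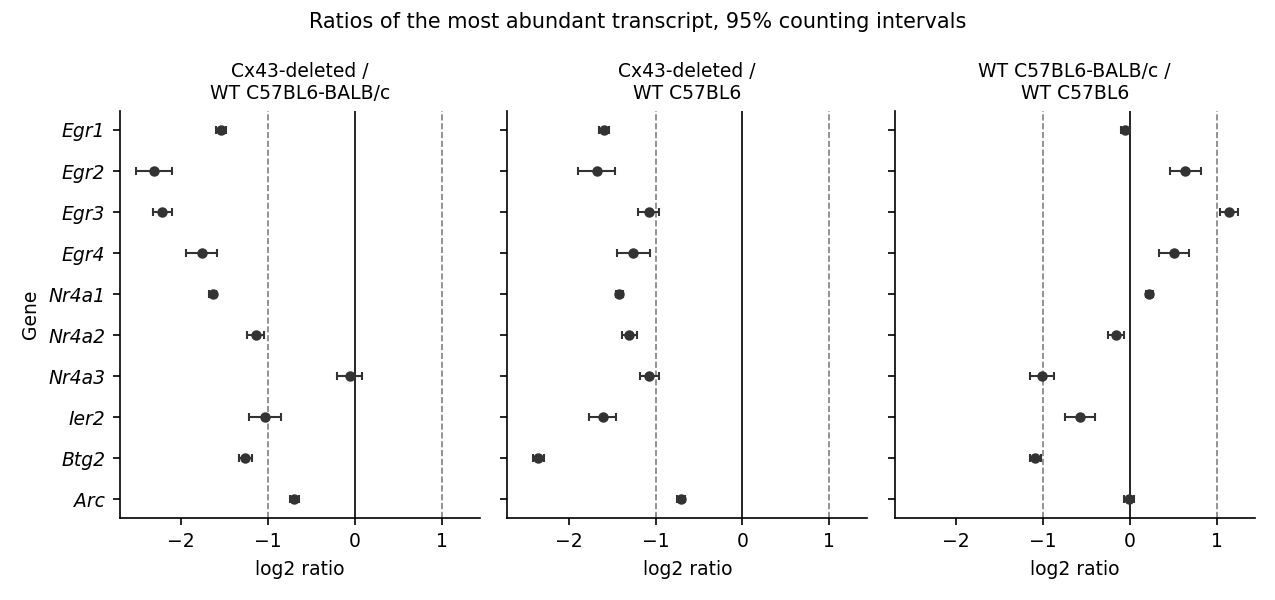
Log2 ratios of the most abundant transcript of each gene in the 3 comparisons of libraries, with 95% counting intervals and dashed lines at 2-fold. In the first 2 panels the points lie left of 0, with the Nr4a3 interval crossing 0 in the first, while in the WT panel they lie on both sides of 0.

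By comparison, 8 of 10 genes were 2-fold or more lower than in WT C57BL6-BALB/c, where 1.01% of all genes were. Arc and Nr4a3 were the others. Against WT C57BL6, 9 of 10 genes were 2-fold or more lower, where 2.91% of all genes were, with Arc the other. Between the WT libraries, 6 of 10 genes were lower in WT C57BL6-BALB/c, as were 53.3% of all genes. Btg2 was lower there by 2-fold or more (2.09% of all genes), and Egr3 was higher by 2-fold or more (1.17% of all genes). For 8 of the 10 genes the distance to the nearer WT library was larger than that between the WT libraries, as it was below both for 14.3% of all genes. Egr3 and Nr4a3 were the 2 for which it was not. The WT libraries give 1 difference between backgrounds and animals, not an estimate of the spread within a group.

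**Figure D3:**
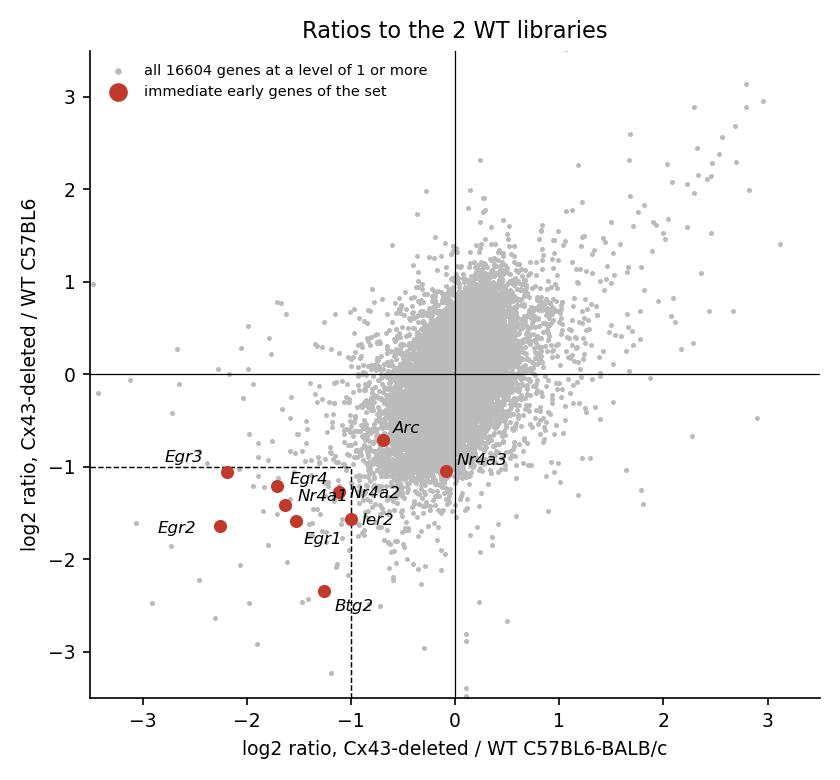
Log2 ratios of the Cx43-deleted library to WT C57BL6-BALB/c (x axis) and to WT C57BL6 (y axis), with 16604 genes in grey and the 10 genes in red. The axes share the Cx43-deleted library, dashed lines bound the area 2-fold or more below both WT libraries, which holds 8 of the 10 genes, and 19 genes lie beyond the axes.

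Between genes, levels can be compared only per length, here in CPM of the most abundant transcript per kb of its deposited length. Nr4a1 was the highest in all 3 libraries, at 69.7, 217 and 186. In the Cx43-deleted library Arc (46.9) and Egr1 (27.3) followed. Btg2 (16.4), Ier2 (15.4) and Egr3 (14.4) came next, and neighbours among these 3 had overlapping intervals. Nr4a2 was at 9.64, Nr4a3 at 4.56, Egr4 at 3.87 and Egr2 at 1.89. In WT C57BL6-BALB/c, Egr1 (79.1) and Arc (76.0) had overlapping intervals, Egr3 (67.1) came after them, and Nr4a3 (4.77) was the lowest. In WT C57BL6, Btg2 (83.6) and Egr1 (82.2) overlapped below Nr4a1, as did Nr4a3 (9.60) and Egr4 (9.24) near the lower end, and Egr2 (6.03) was the lowest.

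Egr1 was the major Egr transcript per length in each library and Egr3 the next. Egr1 made up 57.5%, 46.9% and 64.3% of the summed Egr level per kb, and Egr3 30.4%, 39.8% and 23.8%. Egr2 contributed 3.97%, 5.55% and 4.71%, and Egr4 8.16%, 7.79% and 7.23%. The Cx43-deleted shares of Egr1 and Egr3 lay between those of the WT libraries, that of Egr2 below both and that of Egr4 above both. No counting intervals were taken for these shares, and the Cx43-deleted share of Egr4 rests on 444 reads. In the Nr4a family, Nr4a1 made up 83.1%, 89.3% and 84.8%, and Nr4a3 5.44%, 1.96% and 4.38%.

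The deposited tables hold several transcripts matched to Egr2 (7), Nr4a2 (5), Nr4a3 (4) and Arc (2), and 1 matched to each of the other 6 genes. A read counts on every transcript it overlaps, so these values are not independent. All 7 Egr2 transcripts were lower in the Cx43-deleted library, by 3.90-fold to 5.02-fold relative to WT C57BL6-BALB/c and by 2.84-fold to 3.33-fold relative to WT C57BL6. Those with the upstream first exon, of 773 and 902 bases, had 66, 121 and 104 reads and 83, 151 and 125 reads, though reads on exons shared with the main transcripts count on these too. All 5 Nr4a2 transcripts were lower too, between 1.74-fold and 2.21-fold against WT C57BL6-BALB/c.

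The Nr4a3 transcripts were not alike. The coding transcripts of 5720 and 5068 bases had 1400, 578 and 1395 reads and 1378, 561 and 1379 reads, which gave ratios to WT C57BL6-BALB/c of 1.04-fold and 1.03-fold. A non-coding transcript of 1290 bases (chromosome 4, 48051248 to 48056739), which shares 97.4% of its bases with the exons of the coding transcripts, had 91, 61 and 62 reads, or 1.70, 2.88 and 2.44 CPM. On it the Cx43-deleted library was lowest, by 1.70-fold (1.21 to 2.37) relative to WT C57BL6-BALB/c and by 1.44-fold (1.02 to 2.01) relative to WT C57BL6. The non-coding transcript of 895 bases had 23, 18 and 16 reads. It was 1.98-fold (1.01 to 3.83) lower relative to WT C57BL6-BALB/c, an interval that only just leaves out no difference. Relative to WT C57BL6 it was 1.47-fold (0.725 to 2.90) lower, an interval that includes no difference. Most reads of the long transcripts were therefore on bases outside these shorter models. No ratio was taken on those bases alone. Both intervals of the shorter models to WT C57BL6 overlap that of the 5720-base transcript, 1.95 to 2.27.

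**Figure D4:**
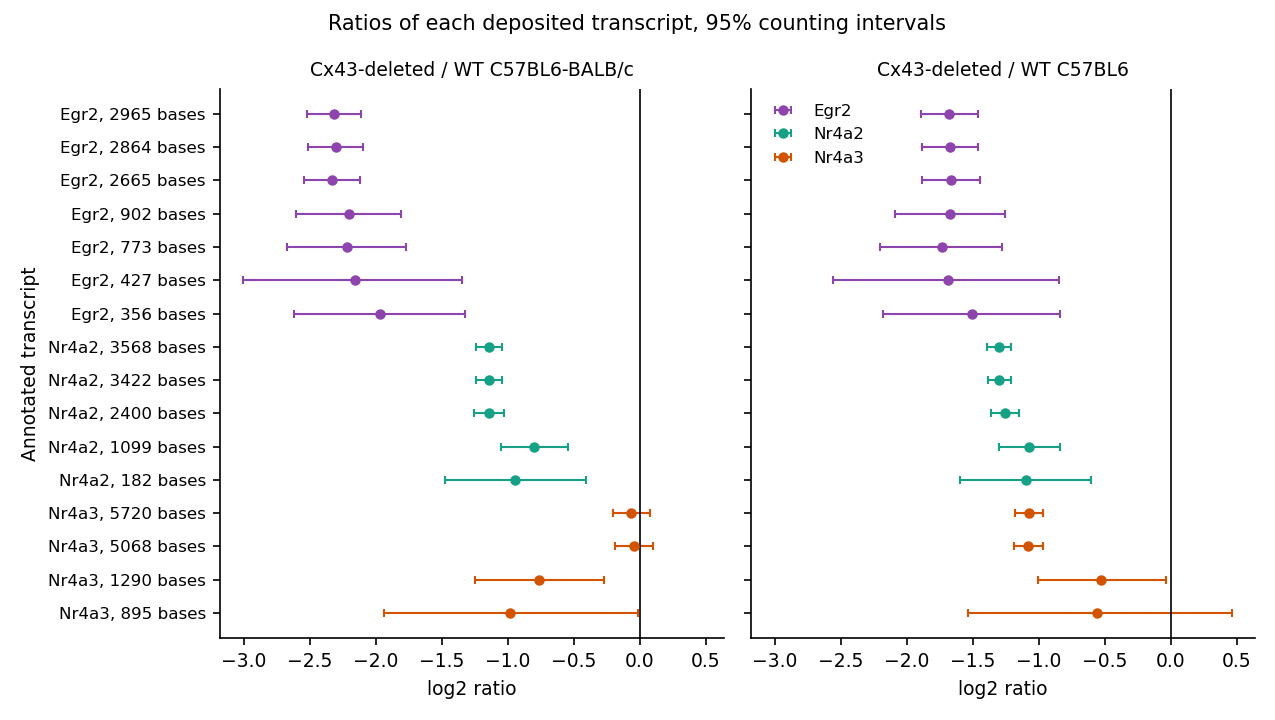
Log2 ratio of the Cx43-deleted library to each WT library for every deposited transcript of Egr2, Nr4a2 and Nr4a3, with 95% counting intervals. The Egr2 and Nr4a2 transcripts lie below 0 in both panels, while the long Nr4a3 transcripts lie at 0 against WT C57BL6-BALB/c and 2-fold lower against WT C57BL6.

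Coverage and annotation bear on these values. The most abundant transcripts of Egr3 and Ier2 had 0 bases without a read in every library, and those of Nr4a1 and Arc at most 4 and 11. Btg2 and Egr4 had the highest uncovered shares, with 16.5%, 14.3% and 12.9% of the bases of Btg2 and 12.8%, 16.7% and 13.0% of those of Egr4. Nr4a3 had 7.12%, 13.5% and 9.97%. In Egr2, 3.74% of bases were without a read in the Cx43-deleted library against 1.01% and 1.35%, although that library was the deepest. The deposited model of Ier2 has 666 bases where the matched GENCODE transcript has 1522, and that of Egr1 has 3100 where the matched one has 4484. Egr3 and Nr4a1 each had a deposited model for 1 of 4 annotated transcripts. These models have 1416 and 2467 bases, where the annotated exons of the genes have 4406 and 3509. Reads outside the shorter models were not counted. That of Btg2 is longer than the matched transcript, with 3083 bases against 2743. Whether its uncovered bases lie in the added part was not tested. The exons of the 10 genes overlap the exons of other annotated genes at 0 bases. Words of 50 bases shared with transcripts of other genes numbered 9 in Nr4a3 and 0 in each of the other 9 genes.

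Among other immediate early genes, 33 were measured in a list that leaves out the 10. In the Cx43-deleted library 22 of the 33 were lower than in either WT library (35.6% of all genes). Another 3 were higher than in either (33.2% of all genes). At 2-fold or more below both were 5 of the 33, beside 0.379% of all genes. The list medians were −0.22, −0.64 and −0.39 in the comparisons with WT C57BL6-BALB/c, with WT C57BL6 and of the WT libraries. The 5 were Fos and Fosb, subunits of the AP-1 transcription factor (log2 ratios to the nearer WT library −2.48 and −2.23), the matrix protein gene Ccn1 (−1.90), the AP-1 subunit Junb (−1.25) and the stress factor Atf3 (−1.02). The 3 above both, named after their values were seen, were the clock gene Per1 (0.18), Myc (0.12) and Fosl1 (0.0084).

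Inhibitors that dampen MAP kinase signalling, many of them induced by it, were measured for 15 of 17 listed genes. Of these, 9 were lower than in either WT library (35.6% of all genes) and 1 was higher than in either (33.2% of all genes). By 2-fold or more there were 0 below and 0 above both, beside 0.379% and 0.428% of all genes. Medians were −0.23, −0.31 and 0.23 in the 3 comparisons. Dusp5, a nuclear ERK phosphatase, was at 10.05, 36.0 and 19.5 CPM, and Dusp6, its cytoplasmic counterpart, at 58.5, 80.9 and 102. Dusp1, which acts on p38 and JNK, was at 202, 277 and 639, so it differed more between the WT libraries than between those of the mixed background. Spred3, an inhibitor of Ras signalling, was the member above both, at 182, 143 and 106.

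The factors and kinases that act on these promoters lay on both sides of the WT libraries. Of 26 genes, 9 were lower than in either WT library (35.6% of all genes) and 11 higher than in either (33.2% of all genes). By 2-fold or more there were 0 below and 0 above both, beside 0.379% and 0.428% of all genes. Medians were −0.03, 0.11 and 0.15. Srf was at 46.9, 68.7 and 59.4 CPM, the furthest below both at −0.34. Mapk3, which encodes the kinase ERK1, was at 183, 213 and 296. Mef2c, a neuronal and vascular transcription factor, was at 21.1, 26.1 and 23.6, and Map2k2, an ERK kinase, at 498, 448 and 378.

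Of 12 partners of the Egr, Nr4a, Btg2 and Arc proteins, 2 were lower than in either WT library (35.6% of all genes). Another 8 were higher than in either (33.2% of all genes). By 2-fold or more there were 0 below and 0 above both, beside 0.379% and 0.428% of all genes. Medians were 0.14, 0.04 and 0.01. Sh3gl3, an endophilin that binds Arc, was at 20.2, 15.6 and 15.1 CPM, and Sh3gl1 of the same family at 101, 86.9 and 83.1. Rxrg, a retinoid receptor of the family that pairs with Nr4a receptors, was at 33.5, 23.8 and 28.8, and Camk2b, a kinase that binds Arc, at 3818, 3399 and 2442.

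Of 14 genes described as Egr1 targets, 8 were lower than in either WT library (35.6% of all genes) and 2 higher than in either (33.2% of all genes). By 2-fold or more there were 0 below and 0 above both, beside 0.379% and 0.428% of all genes. Medians were −0.08, −0.35 and −0.26. The hyaluronan receptor gene Cd44 was at 21.1, 31.3 and 35.5 CPM, the adhesion molecule gene Icam1 at 32.3, 41.2 and 43.0, and fibronectin, Fn1, at 707, 848 and 1074. The angiogenic factor Vegfa lay the other way, at 781, 598 and 546.

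Genes induced by neuronal activity separated the WT libraries as well. All 11 were lower in the Cx43-deleted library than in WT C57BL6-BALB/c, as were 49.5% of all genes, with a median of −0.53. All 11 were higher in WT C57BL6-BALB/c than in WT C57BL6, where 53.3% of all genes were lower, and the list's median was 0.52. Against WT C57BL6, 7 of 11 were lower, beside 52.9% of all genes, with a median of −0.15. Below both by 2-fold or more were 0 of 11, beside 0.379% of all genes. Npas4, an activity-induced transcription factor, was at 77.1, 508 and 103 CPM, and Rgs2, a regulator of G protein signalling, at 32.0, 102 and 41.6. Nptx2, a synaptic pentraxin, was at 25.5, 46.5 and 32.3, and the enkephalin precursor Penk at 193, 278 and 267. Egr2, Egr3, Egr4 and Nr4a1 had the same order of libraries as Npas4, Rgs2, Nptx2 and Penk. Ier2, Btg2, Nr4a2 and Nr4a3 instead were highest in WT C57BL6. Egr1 and Arc did not have the Npas4 order either. In WT C57BL6-BALB/c and WT C57BL6, Egr1 was at 245 and 255 CPM and Arc at 231 and 233 CPM.

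**Figure D5:**
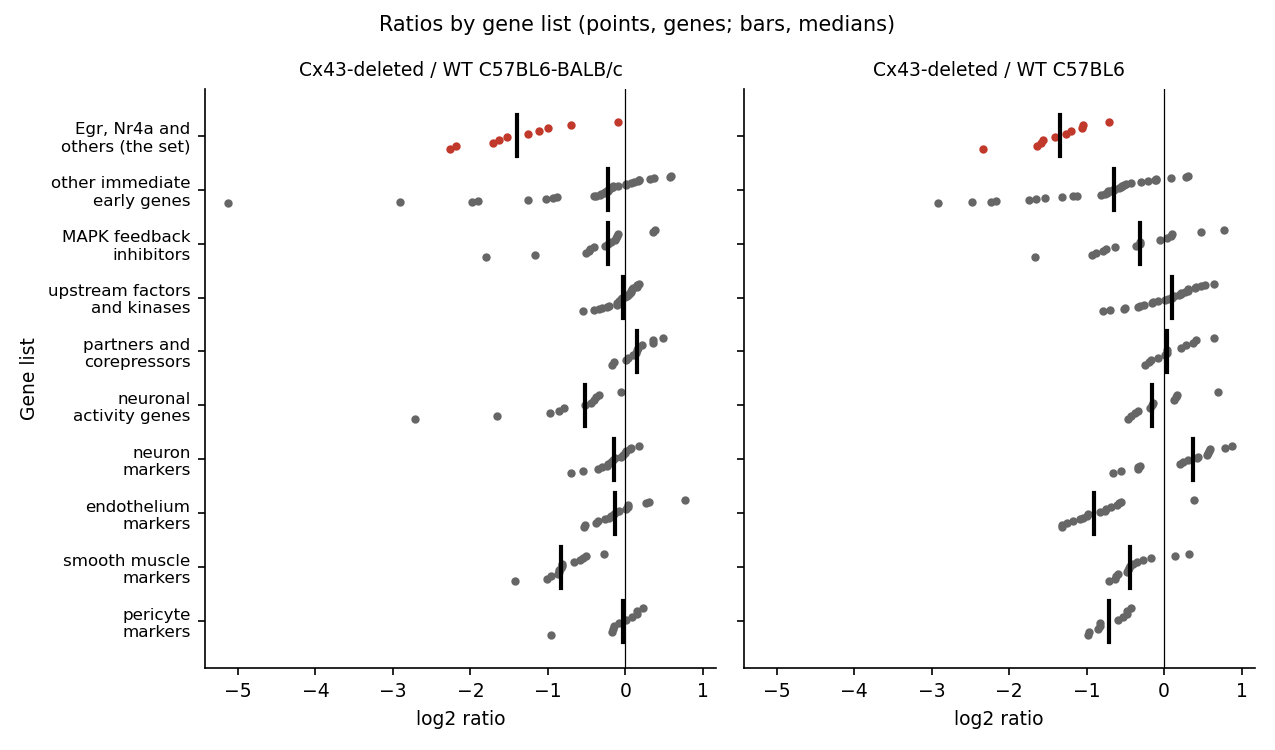
Log2 ratios of the Cx43-deleted library to WT C57BL6-BALB/c (left) and to WT C57BL6 (right) by gene list, with points for genes and bars for medians. The median of the 10 genes lies at −1.39 and −1.34, and those of the smooth muscle markers at −0.83 and −0.44 and of the endothelium markers at −0.14 and −0.90.

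Cell type markers moved with the set in some comparisons. All 14 smooth muscle markers were lower than in WT C57BL6-BALB/c (49.5% of all genes) and 12 lay below both WT libraries (35.6% of all genes), with medians of −0.83 and −0.44 and summed levels of 3202, 5221 and 3954 CPM. Acta2, smooth muscle actin, was at 420, 818 and 573, and Myl9, a myosin light chain, at 740, 1107 and 1024. Endothelium markers had medians of −0.14 and −0.90 and summed levels of 9431, 8999 and 14541, with Pecam1 at 1145, 1378 and 2264 and the glucose transporter Slc2a1 at 2828, 1653 and 2162. Pericyte markers had medians of −0.03 and −0.71 and summed levels of 3042, 3066 and 4971. Neuron markers had medians of −0.15 and 0.37 and summed levels of 11942, 12141 and 8726, with Map2 at 3158, 3463 and 2322. Their part in the lower levels of the 10 genes was not tested.

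Ratios were also taken relative to these markers, which shifts every gene. The medians of all measured genes to WT C57BL6-BALB/c and WT C57BL6 then became 0.83 and 0.41 on smooth muscle markers. On endothelium markers they became 0.14 and 0.87, and on neuron markers 0.15 and −0.40. Relative to the smooth muscle median, 8 genes stayed below both WT libraries and Egr2 alone by 2-fold or more, at −1.20, with Nr4a1 at −0.81 and Egr1 at −0.71 to the nearer library. Relative to the endothelium median, 8 again stayed below both, and Btg2 was the gene past 2-fold, at −1.11, with Egr2 at −0.74 and Egr1 at −0.68. In both cases Arc and Nr4a3 no longer lay below both. Relative to the neuron median, 9 stayed below both and 6 by 2-fold or more, namely Egr1, Egr2, Egr3, Egr4, Nr4a1 and Btg2.

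The remaining marker lists had medians of smaller size than the set in both comparisons. Astrocyte markers were at −0.13 and −0.26, microglia at 0.02 and −0.54, oligodendrocytes at −0.06 and −0.34 and fibroblasts at −0.28 and −0.54. Choroid plexus markers were at 0.37 and −0.81, and red blood cell genes at −0.30 and −1.27. Ttr, the choroid plexus transport protein, was at 3194, 2311 and 6204 CPM.

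The pattern of the set was also looked for in other genes. Among 11993 named protein-coding genes at 5 CPM or more in all 3 libraries, the 5 whose pair of log2 ratios to the WT libraries lay nearest to the pair of medians of the 10 genes were Stoml3, Junb, Lyrm7, Thbs1 and Nsdhl. Their distances were 0.12, 0.14, 0.19, 0.22 and 0.23 log2 units, over 3 libraries. Stoml3, a stomatin-like membrane protein, was at 7.68, 20.5 and 21.96 CPM, and the thrombospondin gene Thbs1 at 20.2, 61.9 and 55.4. Lyrm7, a mitochondrial assembly factor, was at 8.59, 26.8 and 22.6, and Nsdhl, a sterol synthesis enzyme, at 15.2, 34.8 and 39.2.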

How the data were processed

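The authors deposited, for each library, whole-number read counts for 82813 Ensembl transcripts, not normalised, and each count as a fraction of 1 library total, per the file headers. Total RNA was polyA+ selected and prepared with a kit that keeps no strand, per the labels' protocols. The submitters' processing notes name CASAVA 1.8.2, Bowtie and mm10, and no source used here names the counting program. The tables' coordinates reach 197054592 on chromosome 1, past the last GRCm38 gene (195323493), so they were not printed. Identifiers were matched to GENCODE M21 (GRCm38): 69379 matched (83.8%), and 217 on another chromosome were left out.

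Summed counts per gene were scaled to CPM by effective library sizes, the totals multiplied by TMM factors of 0.976, 1.002 and 1.02 (edgeR 4.0.16, R 4.3.3). Log2 ratios used a pseudocount of 0.5, which understates the ratios of low genes, and genes that reached 1 CPM in any library were kept. Reads, member levels and folds refer to a gene's most abundant transcript, and folds have exact binomial and levels exact Poisson intervals (scipy 1.17.1, Python 3.11.15). Summed levels and levels of genes outside the 10 use the summed counts, in which a read on shared exons counts more than once. A gene was counted at a log2 ratio of 1 or more to the nearer WT library. There was no test and no p-value. Named were the 10 genes, Gja1, up to 4 members of each pathway list furthest outside both WT libraries and any 2-fold from both, up to 2 markers of highest level per cell type, and the 5 nearest patterns. Fosl1, Myc and Per1 fall outside this rule. The 10 genes and all lists were chosen with earlier results of these data known. The steps were tested on simulated counts. Alternatives were DESeq2 (1.42.0) size factors, library totals, other pseudocounts and filters, the most abundant transcript alone, and centring on endothelium, smooth muscle or neuron markers.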

Additional observations from a re-analysis of the deposited data

How the results depend on the processing

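All 10 genes stayed below both WT libraries under each change of scaling, pseudocount, filter and gene level, and 8 stayed at 2-fold or more, except 7 with DESeq2's median-of-ratios size factors and with a pseudocount of 1, where Ier2 dropped out. Centring on marker lists, which by construction shifts every ratio, moved the results. On endothelium markers the count was 1 and the medians were −1.25 to WT C57BL6-BALB/c, −0.44 to WT C57BL6 and 0.67 from WT C57BL6-BALB/c to WT C57BL6. On smooth muscle markers they were 1, −0.57, −0.90 and −0.46, and on neuron markers the medians were −1.25, −1.71 and −0.50, with 6 genes. Centred in the same way, the medians of all measured genes were 0.14, 0.87 and 0.67 on endothelium markers. They were 0.83, 0.41 and −0.46 on smooth muscle markers, and 0.15, −0.40 and −0.50 on neuron markers. The other immediate early genes 2-fold below both numbered 3 on endothelium and 3 on smooth muscle markers instead of 5, and the MAPK feedback inhibitors 1 on neuron markers instead of 0. Without centring, the other immediate early genes numbered 4 with a pseudocount of 1 and 4 with the most abundant transcript alone. Of 300 single-gene ratios under alternatives, 87 moved beyond their counting interval, 83 of them under centring, and 0 ratios of 2-fold or more changed sign. No paired analysis was possible because each group has 1 library. Replicates could not be left out for the same reason, so variation between mice is unknown, and depth limits mainly Egr2 and the short Nr4a3 transcripts.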
